A study of Caenorhabditis elegans with 28 samples.

Results

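The last matched stretch of larval development was compared between the wild-type strain N2 and *ebax-1(tm2321)* mutants (strain HW3527). It comprised 4 wild-type libraries, harvested 25, 26, 27 and 28 h after plating, and 4 mutant libraries, harvested 28, 29, 30 and 31 h after plating. These are 8 of the 28 libraries of the series, chosen by genotype and hour alone. Each wild-type library was set against the mutant library taken 3 h later, because the mutant culture ran behind wild type. In both genotypes starved, synchronized L1 larvae were plated on food, kept at 25°C without any treatment and harvested as whole animals, and poly(A) RNA was sequenced from 1 library per genotype and hour. The mutation is a deletion in *ebax-1* that is present in every cell throughout life, and each genotype was followed as 1 culture.

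EBAX-1, whose mammalian counterpart is ZSWIM8, recognises substrates for a Cullin-RING ubiquitin ligase. It is known for quality control of the guidance receptor SAX-3/Robo in developing neurons and for the decay of certain microRNAs, which in mammals and flies is triggered by extensively complementary RNAs. For *C. elegans* the triggers are not defined. *C. elegans* larvae build a new cuticle before each molt, and a large set of epidermal genes is switched on and off once per larval stage. A lag between cultures therefore alters the levels of these genes even where their peaks are equally high, which is why libraries were matched by stage.

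Library totals of the 8 libraries ran from 6476421 to 8071428 counts, so that a level of 1 CPM (counts scaled to a common library total) stood for 6.48 to 8.07 reads. Across 10191 genes, the mutant libraries of 28, 29, 30 and 31 h correlated best with wild type interpolated 3.2, 3.2, 3.4 and 2.8 h earlier. These lags placed the mutant libraries at wild-type 24.8, 25.8, 26.6 and 28.2 h. By these best lags the last mutant library stood slightly later in development than its partner and the other 3 slightly earlier. The correlations were 0.77 to 0.80 at the best lags and 0.75 to 0.78 at exactly 3 h. Interpolated lags mix neighbouring wild-type libraries and no error was estimated for them, so offsets of this size are uncertain. Expression deviated from the genotype mean in the same way within each pair, with correlations across genes of 0.50 to 0.88 between partners and of at most 0.44 between libraries of different pairs. Marker genes of all 6 tissues listed (intestine, body wall muscle, pharynx, neurons, epidermis and germline) were detected in both genotypes. As each hour held a single library, the p-values below measure the scatter between hourly pairs, and genotype cannot be told apart from any other difference between the cultures.

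At matched late stage 879 of 12600 genes tested (6.98%) differed between the genotypes at an adjusted p under 0.01 (edgeR quasi-likelihood test with the pair as a block and Benjamini-Hochberg adjustment over all genes tested). Of these, 453 were higher (3.6%) and 426 lower (3.38%) in the mutant. Increases were larger than decreases. At least 2-fold differences were seen in 186 of the genes that rose but in 32 of those that fell, and the median absolute log2 difference of all genes called was 0.54. The levels of the 4 mutant libraries all lay above the 4 wild-type libraries for 641 genes (5.09%) and below them for 860 genes (6.83%). Most genes named below were picked as called, so a lack of overlap among them is no independent support.

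The number of calls rested on the pairing and on single pairs. Without the pair block 26 genes were called. Leaving out 1 pair gave 1715 calls without the pair at wild-type 25 h, 119 without that at 26 h, 152 without that at 27 h and 290 without that at 28 h. limma on log2 values with the study's pseudocount of 8 called 97 genes. The share of calls that were increases was 51.5%, but it was 71.2% with scaling to total counts, 64.8% in DESeq2 and 87.6% in limma. It was lower in other settings, at 48.3% with RLE scaling and 44.8% in a spline over 22 libraries. With 1 pair left out it ranged from 47.2% to 71.1%, so the balance of directions depended on the setting. In each of the 4 fits that left out a pair, 107 of the 879 genes were called in the same direction, 76 higher and 31 lower. Adding DESeq2, scaling to total counts, a spline over 22 libraries and limma left 52 genes (44 higher and 8 lower) that were called under every one of these 8 alternatives. The 44 higher genes include 5 C-type lectins (*clec-60*, *clec-63*, *clec-71*, *clec-169* and *clec-210*), the lysozyme *lys-7* and the lysosomal lipases *lipl-1*, *lipl-2* and *lipl-5*. The infection-response genes *irg-4* and *irg-5* are among the 8 lower genes.

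**Figure D1:**
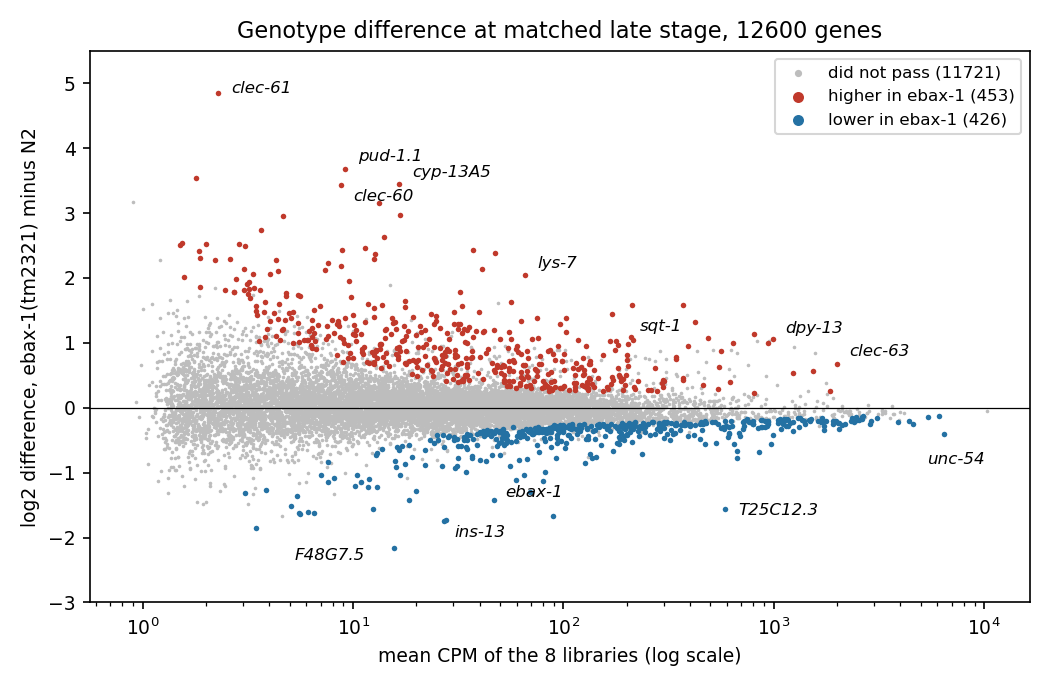
Log2 difference between *ebax-1(tm2321)* and N2 (vertical axis) against the mean CPM of the 8 libraries (horizontal axis, log scale) for the 12600 genes tested. Each point is a gene, red for the 453 genes higher and blue for the 426 genes lower in the mutant at an adjusted p under 0.01. Large differences are mostly increases, and the decreases form a band close to 0 among abundant genes.

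*ebax-1* itself (WBGene00004140, IV:10286955-10293013 on the plus strand of WBcel235, protein coding) was lower in the mutant. It stood at 35.1, 63.4, 71.5 and 105 CPM in wild type at 25 to 28 h and at 18.4, 25.3, 23.7 and 32.5 CPM in the mutant at 28 to 31 h. All 4 mutant libraries lay below all 4 wild-type libraries, and the level rose towards the end of the window in both genotypes. The log2 difference was -1.42 (SE 0.11, edgeR adjusted p = 0.000196). Exons that the deletion spares are counted as well, which makes this only a partial check of genotype. The call was kept in each fit that left out a pair, but not without the pair block (adjusted p = 0.0593) or in limma (adjusted p = 0.0131).

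The partners of EBAX-1 in the ligase did not pass the test. The scaffold *cul-2* had a log2 difference of 0.12, the adapters *elb-1* and *elc-1* (Elongin B and C) 0.12 and -0.11, and the RING subunit *rbx-1* -0.00. Among genes of the NEDD8 pathway that activates cullins, *ned-8* had 0.05, *rfl-1* 0.03, *cand-1* 0.09 and *ubc-12*, the NEDD8-conjugating enzyme, -0.26 (edgeR adjusted p = 0.0521). Of the 9 genes of this list 1 was called, namely *ebax-1*, and the median log2 difference was 0.03, against 0.02 over all genes tested.

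The largest increases were found in genes that wild-type larvae hardly expressed. The C-type lectin *clec-61* had 4 reads over the 4 wild-type libraries and 134 over the mutant libraries, a 34.8-fold difference of summed CPM with a 95% counting interval of 13.3 to 130. *clec-60*, a lectin gene close to it on chromosome II, stood at 0.795, 1.95, 1.27 and 1.84 CPM in wild type and at 9.14, 17.8, 14.5 and 22.7 CPM in the mutant (log2 difference 3.44, SE 0.17, edgeR adjusted p = 1.71e-05). Both belong to a large family of secreted lectins, several of which are known to be induced by bacterial infection, and in both every mutant library exceeded every wild-type library.

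The 10 largest increases included 3 genes for lipid binding or breakdown. *lbp-8*, which encodes a lysosomal fatty acid-binding protein, rose from 0.927, 0.696, 1.14 and 1.41 CPM to 4.99, 6.92, 9.03 and 12.1 CPM (log2 difference 2.95, SE 0.22, adjusted p = 0.000137). The lysosomal lipase gene *lipl-1* rose from 2.52, 6.12, 3.55 and 3.53 CPM to 18.3, 29.8, 21.3 and 27.2 CPM (log2 difference 2.63, SE 0.14, adjusted p = 2.6e-05). The groups did not overlap for either gene, and both calls were kept without any 1 pair. *far-3*, a fatty acid- and retinol-binding protein gene, had a log2 difference of 2.73 (adjusted p = 0.00153, edgeR as above), and lost the call without the pair at 26 h (adjusted p = 0.0192).

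*cyp-13A5*, a cytochrome P450 gene, stood at 0.397, 3.62, 3.8 and 3.39 CPM in wild type and at 20.6, 42.5, 32.3 and 26 CPM in the mutant (log2 difference 3.45, SE 0.24, edgeR adjusted p = 9.97e-05). F09C8.1 and ZK218.5, known only by their sequence names, rose by 2.97 and 3.54 on the log2 scale, the second of them from below 1 CPM in every wild-type library to 2.52 to 4.45 CPM. ZK218.5 lost the call without the pair at 26 h (adjusted p = 0.0202).

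The remaining genes among the 10 largest increases belong to the *pud* group, which was named for proteins that accumulate in *daf-2* insulin receptor mutants. *pud-1.1* stood at 1.59, 1.39, 1.14 and 0 CPM in wild type and at 4.16, 3.46, 60.5 and 1.33 CPM in the mutant, and its fitted log2 difference of 3.67 thus rested on the mutant library of 30 h. Without that pair it was 1.62 (edgeR adjusted p = 0.0932), and the call was also lost without the pair at 26 h (adjusted p = 0.0239) or 28 h (adjusted p = 0.0253). The copy of *pud-2.2* with the identifier WBGene00017490 stood at 2.38, 2.92, 1.65 and 1.55 CPM and at 75.5, 9.26, 5.77 and 6.93 CPM, with a single high mutant library at 28 h (log2 difference 3.15, and 1.82 to 3.67 with 1 pair left out). It lost the call without the pair at 26, 27 or 28 h (adjusted p of at most 0.022). *pud-1.1* and *pud-1.2*, and likewise the copies of *pud-2*, are near-identical, and the assignment of reads that fit several copies is not known here. Values of single members are therefore uncertain. The same holds for other families of close paralogs (*clec*, *cyp*, *spp*, *ugt* and collagen genes).

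**Figure D2:**
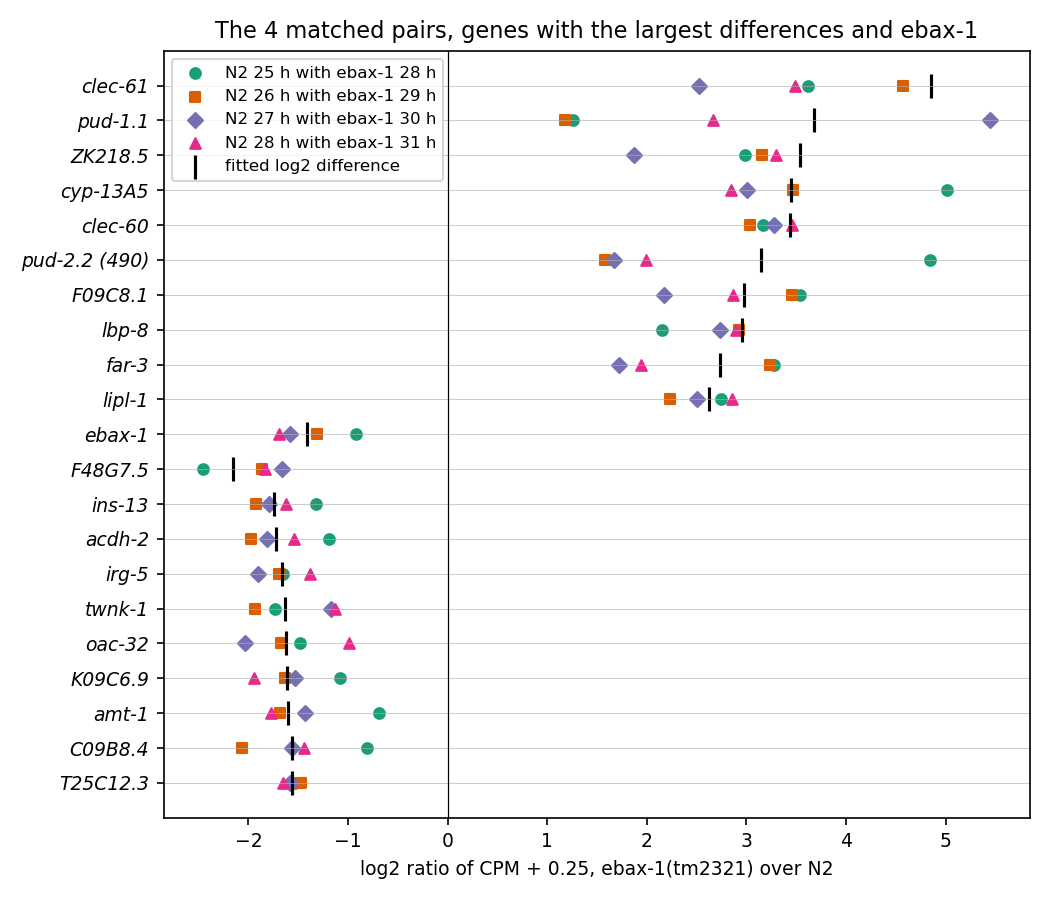
Log2 ratio of CPM (with 0.25 CPM added) of mutant over wild type in each of the 4 matched pairs (coloured symbols) for the 10 largest increases, *ebax-1* and the 10 largest decreases, with the fitted log2 difference as a black bar. The 20 genes were chosen for the same direction in 4 of 4 pairs, *pud-1.1* and *pud-2.2* (490, for WBGene00017490) are spread widely by 1 pair each, and the pairs of T25C12.3 lie between -1.65 and -1.47.

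T25C12.3 (WBGene00012018, X:11491087-11499999 on the minus strand of WBcel235) showed the decrease of lowest p in the comparison. It stood at 810, 906, 899 and 901 CPM in wild type and at 280, 326, 299 and 287 CPM in the mutant, 2.95-fold lower (log2 difference -1.56, SE 0.04, edgeR adjusted p = 9.57e-07). The spread within each genotype was small against this gap, and the difference in the first 4 pairs of the time course was -1.57.

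*irg-5*, a gene known to be induced by pathogens in the intestine, fell from 126, 144, 152 and 120 CPM to 39.8, 44.3, 40.4 and 45.7 CPM (log2 difference -1.67, SE 0.08, edgeR adjusted p = 1.71e-05), and the groups did not overlap. Its relative *irg-4* fell from 69.7, 100, 87.9 and 68.7 CPM to 39.6, 43.7, 36.4 and 31.2 CPM (log2 difference -1.11, SE 0.08, adjusted p = 0.000114). Both kept the call without any 1 pair.

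The insulin-like peptide gene *ins-13* was at 17.4, 64.4, 63.3 and 21.9 CPM in wild type and at 6.79, 16.8, 18.1 and 6.93 CPM in the mutant (log2 difference -1.74, SE 0.11, edgeR adjusted p = 4.81e-05). Its level peaked in the middle of the window in both genotypes, and the mutant peak was lower. *acdh-2*, an acyl-CoA dehydrogenase gene, had nearly the same values (16.8, 66.6, 65.3 and 22.2 CPM against 7.2, 16.8, 18.4 and 7.46 CPM, log2 difference -1.72). These genes lie on the same strand of chromosome II and overlap by 87 bases in WBcel235, so reads from one cannot be fully told apart from reads of the other.

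F48G7.5, known only by its sequence name, fell steeply through the window in both genotypes, from 66.5 to 2.54 CPM in wild type and from 11.9 to 0.533 CPM in the mutant (log2 difference -2.16, SE 0.16, edgeR adjusted p = 0.000108). The other genes among the 10 largest decreases were low. *twnk-1*, the mitochondrial DNA helicase, had a log2 difference of -1.64, the O-acyltransferase gene *oac-32* and K09C6.9 of -1.62, the ammonium transporter gene *amt-1* of -1.60 and C09B8.4 of -1.56. All 5 lost the call when the pair at 26 or at 27 h was left out (adjusted p of at most 0.022), and *amt-1* also without the pair at 28 h.

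Among abundant transcripts the increases were moderate. *clec-63*, a C-type lectin gene, stood at 1508, 1555, 1542 and 1543 CPM in wild type and at 2281, 2456, 2541 and 2503 CPM in the mutant (log2 difference 0.67, SE 0.03, edgeR adjusted p = 1.71e-05). C17F4.7 rose by 0.56 on the log2 scale, from 1049 to 1416 CPM up to 1778 to 1934 CPM, again without overlap. *npa-1*, which encodes a secreted fatty acid- and retinol-binding polyprotein, had a log2 difference of 0.53, and lost the call without the pair at 26 h (adjusted p = 0.0132). *dpy-13* and *col-17*, cuticle collagen genes, are described with their group.

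The largest decreases in CPM included *unc-54*, the major myosin heavy chain of body wall muscle. It fell from 6905, 7667, 7347 and 7453 CPM to 5356, 5740, 5499 and 5466 CPM (log2 difference -0.41, SE 0.02, edgeR adjusted p = 2.6e-05). The groups did not overlap, and the call was kept without any 1 pair. *ahcy-1*, the S-adenosylhomocysteine hydrolase gene, and *asp-1*, a gut aspartyl protease gene, fell by 0.26 and by 0.21 on the log2 scale, but both lost the call without the pair at 26, 27 or 28 h (adjusted p of at most 0.0444).

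Immune and secreted defence genes were more often higher than lower. Of 87 C-type lectin genes tested, 22 were higher and 3 lower (median log2 difference 0.34, against 0.02 over all genes tested and background shares of 3.6% and 3.38%). The same background applies to each list below. *clec-71* stood at 2.15 to 4.5 CPM in wild type and at 13.9 to 24.4 CPM in the mutant (log2 difference 2.46, SE 0.13, edgeR adjusted p = 2.6e-05). *clec-169* rose by 1.79 on the log2 scale. The summed level of the lectins was 3529 to 3808 CPM in wild type and 4804 to 5481 CPM in the mutant. A further 53 lectin genes had no read in any of the 8 libraries. The count of higher lectins ranged from 8 to 29 when 1 pair was left out, and was 8 in limma.

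Of 29 lysozyme and saposin-like genes, which encode antibacterial proteins largely made in the gut, 13 were higher and none was lower (median log2 difference 0.28). Over all genes 3.6% were higher and 3.38% lower. *lys-7* stood at 26.2, 23.4, 22.5 and 29.4 CPM in wild type and at 105, 117, 89.8 and 110 CPM in the mutant (log2 difference 2.05, SE 0.08, edgeR adjusted p = 8.72e-06). *lys-8* rose by 0.61, *spp-2* by 1.64 and *spp-18* by 1.28 on the log2 scale. None of these 4 genes, picked as called, overlapped between genotypes (5.09% of all genes lay wholly above wild type). With 1 pair left out, 4 to 13 genes of this list were higher, and 3 in limma.

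Antimicrobial peptides of the epidermis were higher as well, in 5 of 14 genes of the *nlp* and *cnc* clusters (3.6% of all genes), and none was lower. Their count was 3 without the pair at 26 or 27 h and 3 in limma, and 1 gene was lower without that at 25 or 28 h. *nlp-34* fell through the window from 31.3 to 3.67 CPM in wild type and from 153 to 25.3 CPM in the mutant, and was higher in the mutant by 2.11 to 2.70 on the log2 scale in the 4 pairs (fitted difference 2.39, SE 0.10, edgeR adjusted p = 1.01e-05). *nlp-30* had a log2 difference of 1.17, *nlp-33* of 0.72 and *cnc-4* of 1.46. The last lost the call without the pair at 26 or 27 h (adjusted p of at most 0.031).

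Of 15 genes named for a response to infection or to the insulin-regulated factor DAF-16, 10 did not pass the test, 1 was higher, *dod-22* (log2 difference 1.44), and 4 were lower, namely *irg-4*, *irg-5*, *dod-17* (log2 difference -0.82) and *dod-24* (-0.48). The median of the list was 0.02, and that of all genes 0.02. *dod-17*, *dod-22* and *dod-24* lost the call without at least 1 of the pairs (adjusted p of at most 0.0185).

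**Figure D3:**
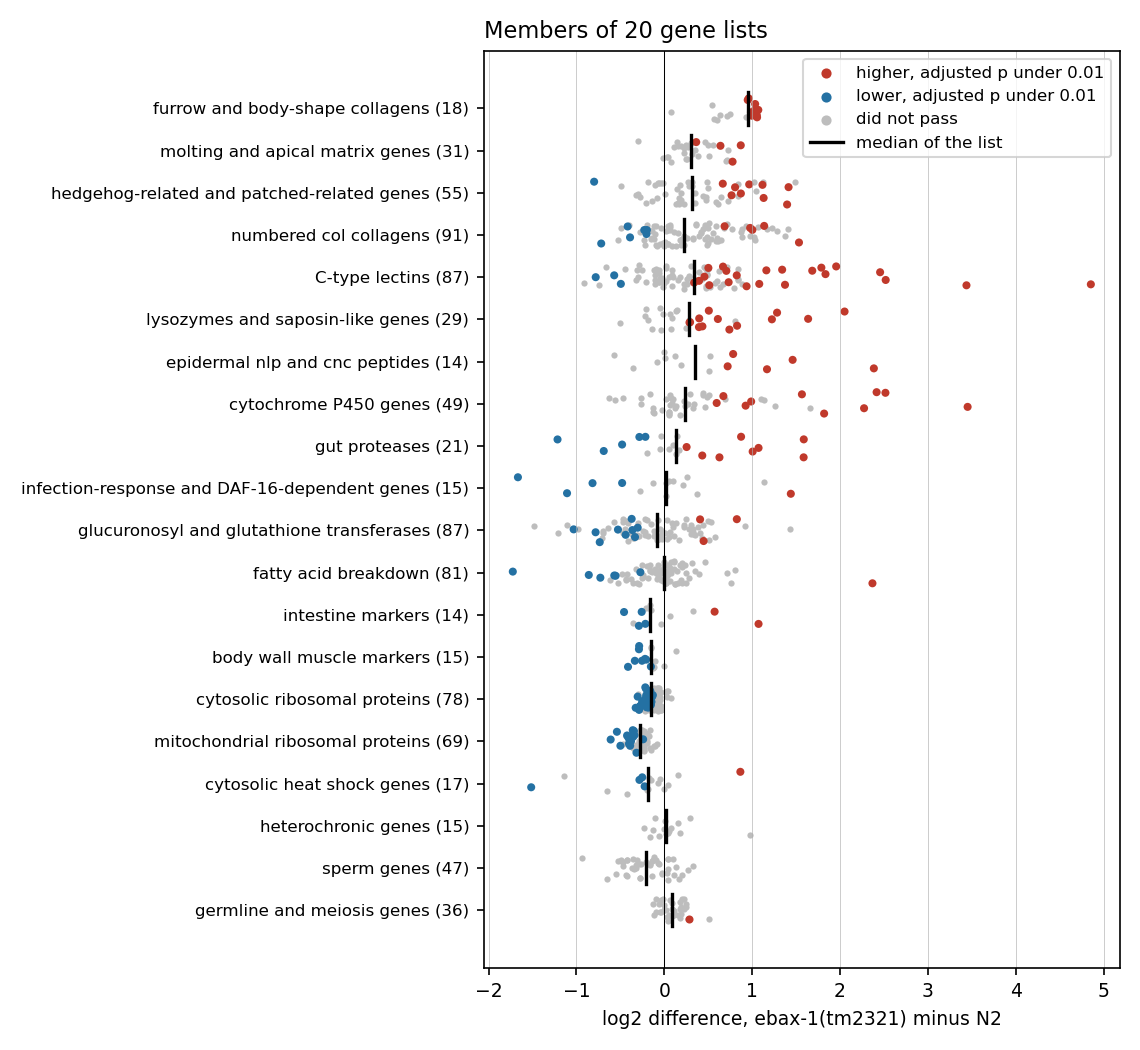
Log2 difference between *ebax-1(tm2321)* and N2 (horizontal axis) of the members of 20 gene lists, with the number of members tested in brackets. Points are genes, red where higher and blue where lower at an adjusted p under 0.01, and black bars are list medians. The furrow and body-shape collagens are centred near 0.96, the lectins and lysozymes spread to the right, and both groups of ribosomal protein genes lie in a narrow band below 0.

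Detoxification genes were counted by family. Of 49 cytochrome P450 genes 10 were higher and none was lower (median log2 difference 0.24), against 3.6% and 3.38% of all genes. *cyp-35B1* and *cyp-32A1* had log2 differences of 2.42 and 0.99. Of 87 glucuronosyl- and glutathione transferase genes, which act in the conjugation step of detoxification, 3 were higher and 9 lower (median -0.09). The share of higher transferase genes was thus close to that of all genes. *ugt-44* rose by 0.83, while *ugt-64* fell by 0.53 and *gst-4* by 1.03 on the log2 scale. *cyp-35B1*, *cyp-32A1*, *ugt-44*, *ugt-64* and *gst-4* lost the call when 1 pair was left out (edgeR adjusted p of at most 0.0536), and *gst-4* overlaps *dhs-12* on the same strand. With 1 pair left out, 1 to 12 of the cytochrome P450 genes were higher and 0 to 20 of the transferase genes lower, with none called in either direction without the pair at 26 or 27 h. limma called 1 P450 gene and no transferase gene.

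Genes of fat metabolism did not move together. *fat-5*, a palmitate desaturase gene, stood at 53.3, 37.4, 24.6 and 27 CPM in wild type and at 144, 77.2, 84.5 and 55.3 CPM in the mutant (log2 difference 1.33, SE 0.12, edgeR adjusted p = 0.000289). The fatty acid elongase gene *elo-1* was lower instead (log2 difference -0.38), a call that was lost without the pair at 26 or 27 h (adjusted p of at most 0.0146). In all 1 of 15 fatty acid synthesis genes was higher and 2 were lower.

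Of 81 genes for fatty acid breakdown, 1 was higher and 6 were lower, and the median was -0.00. The gene that rose was *ech-9*, an enoyl-CoA hydratase gene, from 1.99, 4.17, 5.44 and 4.66 CPM to 9.01, 17, 33.4 and 26.3 CPM (log2 difference 2.37, SE 0.14, edgeR adjusted p = 4.61e-05). Another enoyl-CoA hydratase gene, *ech-6*, fell from 1188, 1161, 1157 and 1093 CPM to 769, 786, 825 and 753 CPM (log2 difference -0.55, SE 0.04, adjusted p = 5.79e-05). The groups overlapped for neither gene. Between 2 and 15 genes for fatty acid breakdown were lower when 1 pair was left out. Among lipid-binding proteins 3 of 16 were higher, *lbp-8*, *far-3* and *far-6* (log2 difference 0.57), and *lbp-6* was lower, at 360 to 419 CPM in the mutant against 524 to 626 CPM in wild type (log2 difference -0.55). *far-6* lost the call without the pair at 26 or 27 h (adjusted p of at most 0.0132).

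Gut proteases changed in both directions, with 8 of 21 higher and 5 lower (3.6% and 3.38% of all genes). The cathepsin genes *cpr-1*, *cpr-3* and *cpz-1* had log2 differences of 1.07, 1.01 and 1.59. *cpz-1*, which also acts in the epidermis at the molt, stood at 211, 52.7, 68.4 and 103 CPM in wild type and at 207 to 592 CPM in the mutant. *cpr-8*, another cathepsin B-like gene, fell from 11.5, 22.3, 21.9 and 17.4 CPM to 4.85, 9.14, 8.88 and 8.53 CPM (log2 difference -1.21, SE 0.11, edgeR adjusted p = 0.000377). These 4 genes kept the call without any 1 pair, while the list held 4 to 9 higher and 1 to 5 lower genes when 1 pair was left out. In limma no gene of the list was called higher and 1 was called lower, *cpr-8*. In whole animals fewer cells of a type and less RNA per cell cannot be told apart. Of 14 intestine markers 2 were higher and 4 lower (0 to 8 lower when 1 pair was left out, and none called in limma), with a summed level of 9899 to 10872 CPM in wild type and 9012 to 9551 CPM in the mutant, and their part in the differences of gut genes was not tested.

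Among the gene lists the highest median was that of the furrow and body-shape collagens, which form the annuli of the cuticle and set its shape. Of 18 tested, 9 were higher and none was lower, with a median log2 difference of 0.96. *sqt-1* stood at 335, 60.5, 51.3 and 111 CPM in wild type and at 595, 134, 102 and 225 CPM in the mutant. *rol-8* stood at 267, 51.2, 46.2 and 94.1 CPM and at 572, 117, 83.2 and 186 CPM. Both fell to a trough in the third library of either genotype, and the mutant was higher by a similar ratio in every pair. By the lags above, the mutant libraries stood at wild-type 24.8, 25.8, 26.6 and 28.2 h. That is before their partners while both genes fell, and after the last partner, where both rose. The part of this offset in the ratios was not tested.

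The mutant exceeded wild type by 0.99 (SE 0.06) on the log2 scale for *sqt-1* (edgeR adjusted p = 4.14e-05), by 1.03 for *rol-8*, by 0.95 for *sqt-3* and by 1.06 for *lon-3*, and all 4 kept the call without any 1 pair. *dpy-13*, *dpy-4* and *col-17*, collagen genes that were still high at wild-type 25 h, fell steeply through the window. *dpy-13* went from 2438 to 98.2 CPM in wild type and from 3077 to 288 CPM in the mutant (log2 difference 1.05), *col-17* had a log2 difference of 1.14 and *dpy-4* of 1.0, and these 3 lost the call without the pair at 26 or 27 h (adjusted p of at most 0.0636). The number of higher genes in the list was 5 to 16 with 1 pair left out, 4 in limma and 2 in the spline over 22 libraries. A fit at a 4 h shift set each mutant library against the wild-type library taken 4 h earlier. There the log2 difference turned to -0.06 for *sqt-3*, -0.29 for *dpy-13*, -0.39 for *dpy-4* and -0.32 for *col-17*. The sign stayed positive for *sqt-1*, *rol-8* and *lon-3*.

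The furrow and body-shape collagens rise and fall with the molting cycle. Their median log2 difference was 0.87 in the first 4 pairs (wild-type 18 to 21 h), 0.11 in the middle 3 pairs (22 to 24 h), near the peak of these genes, and 0.96 in the last 4 pairs. *sqt-1* differed by 0.94, 0.12 and 0.99 in these windows. The difference between windows was not tested for the list.

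Other genes of the cuticle and the molt differed less. Of 31 molting and apical matrix genes 4 were higher and none was lower (median 0.30), namely *mlt-9*, *qua-1*, *mlt-8* and the astacin protease gene *nas-38*, with log2 differences of 0.78, 0.64, 0.36 and 0.87. Each lost the call without the pair at 26 h (edgeR adjusted p of at most 0.0658). Of 55 hedgehog- and patched-related genes 9 were higher and 1 was lower (median 0.31), with log2 differences of 1.40 for *wrt-4*, 1.12 for *wrt-1* and -0.80 for *ptr-13*, and of these 3 only *wrt-4* kept the call without any 1 pair. Without 1 of the pairs, 0 to 12 of the molting genes and 1 to 17 of the hedgehog- and patched-related genes were higher.

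Of 91 numbered *col* genes 5 were higher and 6 lower (median 0.23). That is 12.1% called, against 6.98% of all genes (3.6% higher and 3.38% lower). *col-138* stood at 1.53 and *col-118* at -0.42 on the log2 scale, and neither call was kept when the pair at 26 h was left out (edgeR adjusted p of at most 0.0221). With 1 pair left out, 0 to 35 *col* genes were higher and 0 to 10 lower, with none lower without the pair at 26 or 27 h. limma called none in either direction. Genes were taken as rhythmic in wild type by a 7 h cycle fitted over all wild-type libraries. The cycle had to reach an edgeR adjusted p under 0.01 and an amplitude of at least 0.5 log2. Of 2423 such genes 321 were called (13.2%, with 9.86% higher), against 558 of 10177 others (5.48%, with 2.1% higher). The wild-type libraries of this comparison entered that definition too, so the classes are not independent of the calls. Of 566 genes falling by at least 0.5 log2 per h, 72 were higher and 12 lower in the mutant (median log2 difference 0.37), whereas of 810 rising at that rate 28 were higher and 5 lower (median -0.04).

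**Figure D4:**
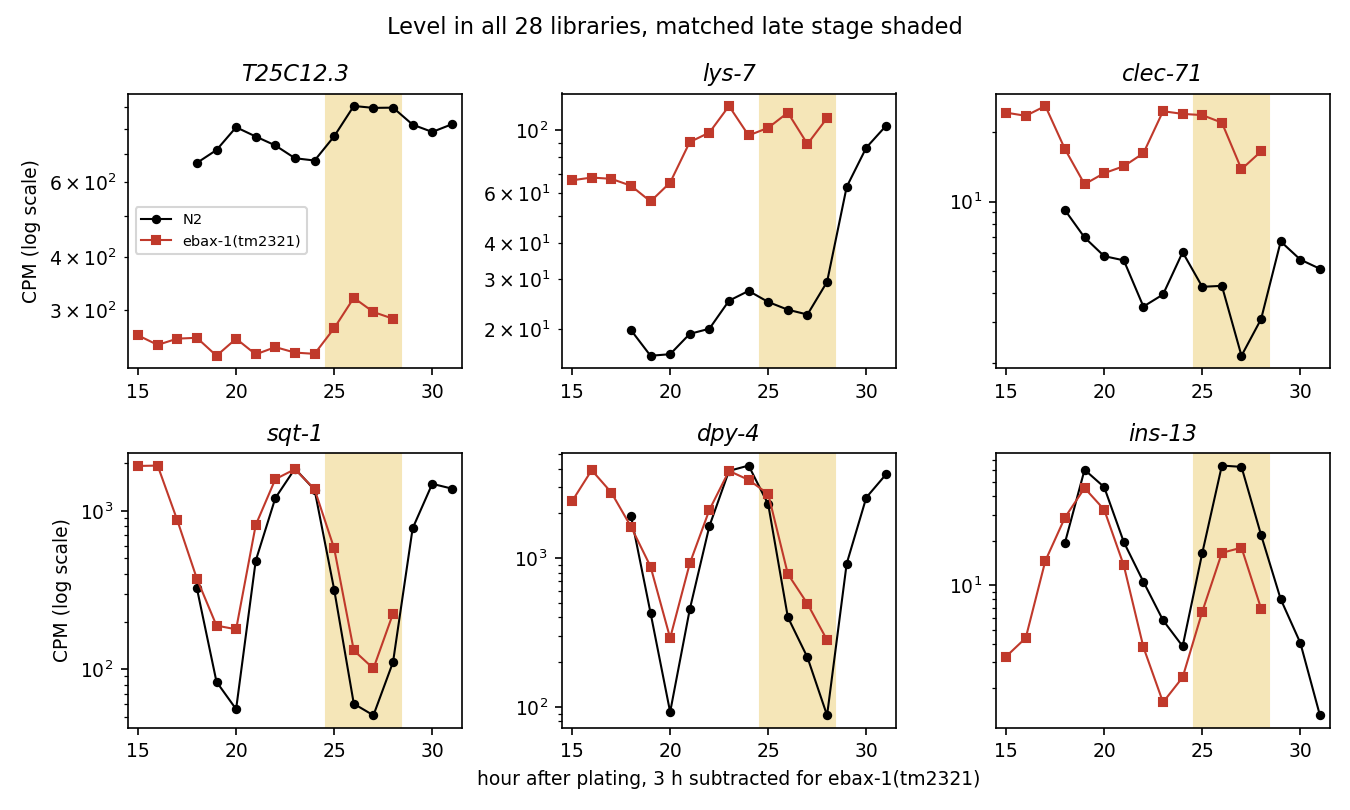
CPM (log scale) of 6 genes in all 28 libraries against the hour after plating, with 3 h subtracted for *ebax-1(tm2321)* (red squares, N2 in black circles) and the matched late stage shaded. T25C12.3 and *lys-7* differ throughout the matched hours, *sqt-1* and *dpy-4* meet near their peak and part in the trough, and *ins-13* and *clec-71* differ more in the shaded hours than at wild-type 18 to 21 h. Both *ins-13* and *clec-71* already differ in the same direction at wild-type 22 to 24 h.

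Ribosomal protein genes that changed were all lower, by small amounts. Of 78 cytosolic ribosomal protein genes none was higher and 29 were lower, and 64 were lower in 4 of 4 pairs (against 17.5% of all genes), with a median log2 difference of -0.15. *rps-21* stood at 932, 933, 991 and 964 CPM in wild type and at 801, 750, 769 and 777 CPM in the mutant (log2 difference -0.30, SE 0.04, edgeR adjusted p = 0.00139). *rpl-43* and *rla-1* fell by 0.29 and by 0.25, and all 3 lost the call without the pair at 26 or 27 h (adjusted p of at most 0.0267). The summed level was 137804 to 147312 CPM in wild type and 126983 to 133332 CPM in the mutant, without overlap. The number of genes called lower depended strongly on the processing, with 9 on scaling to total counts, 4 in DESeq2, 0 in limma and 0 to 54 with 1 pair left out, while the median stayed between -0.16 and -0.10 in all settings at the 3 h shift.

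Mitochondrial ribosomal protein genes were lower too, 15 of 69 by the test and 65 in 4 of 4 pairs, with a median log2 difference of -0.28. *mrps-14* stood at 109, 105, 111 and 95.4 CPM in wild type and at 67.2, 65.8, 76.5 and 65.8 CPM in the mutant (log2 difference -0.61, SE 0.06, edgeR adjusted p = 0.000338) and kept the call without any 1 pair. *mrpl-39* fell by 0.54 on the log2 scale, and lost the call without the pair at 26 h (adjusted p = 0.0156). The list had 6 lower genes on scaling to total counts and in DESeq2, 0 in limma and 1 to 31 with 1 pair left out.

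Of 15 body wall muscle markers 8 were lower and none was higher (median log2 difference -0.15), against 3.38% and 3.6% of all genes. Besides *unc-54*, the paramyosin gene *unc-15*, the troponin C gene *pat-10* and *dim-1* fell by 0.25, 0.33 and 0.29 on the log2 scale, with edgeR adjusted p of 0.000507 for *unc-15*, but these 3 lost the call without the pair at 26 or 27 h (adjusted p of at most 0.0178). Leaving out 1 pair gave 1 to 11 lower markers, and limma none. The summed marker level was 23490 to 24965 CPM in wild type and 20028 to 20987 CPM in the mutant. For pharynx markers 1 of 15 was higher and 1 lower, for neuron markers 0 and 1 of 20, for epidermis markers 1 and 0 of 14, and for germline markers 1 and 0 of 15.

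Chaperone genes that changed were mostly lower. Of 17 cytosolic heat shock genes 1 was higher, the embryonic and germline small heat shock gene *sip-1* (log2 difference 0.87), and 4 were lower, among them *hsp-90* (-0.22), with 0 to 9 lower when 1 pair was left out. Of 21 chaperone genes of the endoplasmic reticulum and mitochondria 3 were lower, *hsp-4* (-0.34), *hsp-6* (-0.29) and *hsp-60* (-0.31). These 5 named genes, picked as called, lost the call without the pair at 26 or 27 h (edgeR adjusted p of at most 0.0658). They did not overlap between genotypes, and over all genes the mutant lay wholly above wild type for 5.09% and wholly below for 6.83%. The metallothionein gene *mtl-1* had a log2 difference of 1.76, and lost the call without the pair at 26, 27 or 28 h (adjusted p of at most 0.0247). None of 33 proteasome subunit genes was called, against 6.98% of all genes (median log2 difference -0.06).

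Genes that set developmental time did not pass the test. Of 15 heterochronic genes, which specify the order of larval stages, none was called, against 6.98% of all genes tested. A list of 15 genes is too short to be told apart from that share. The median log2 difference was 0.02. *lin-14* and *lin-28*, which act early in the pathway, had log2 differences of -0.00 and -0.13, *lin-46* -0.23, *hbl-1* 0.30, *daf-12* 0.18, *puf-9* 0.07 and *lin-66* -0.05. *lin-41*, which *let-7* represses, had 0.05, and *lin-29* and its partner *mab-10*, which act at the transition to adulthood, had 0.01 and 0.06. *mab-3* had -0.16, *dmd-3*, measured at 0.397 to 4.88 CPM only, 0.97 (edgeR adjusted p = 0.0313), and *dre-1* -0.11. The period homolog *lin-42* and its kinase *kin-20* had 0.16 (adjusted p = 0.065) and 0.02.

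Of 9 oscillator transcription factors 2 were higher. *bed-3* stood at 34.8, 8.49, 5.7 and 6.92 CPM in wild type and at 64.3, 20.9, 12.9 and 8.26 CPM in the mutant (log2 difference 0.93, SE 0.15, edgeR adjusted p = 0.00474), and *myrf-2* had 0.28. Both lost the call without the pair at 26 or 27 h (adjusted p of at most 0.056). The others had log2 differences of 0.32 (*nhr-25*), 0.44 (*grh-1*), 0.21 (*myrf-1*), -0.15 (*nhr-85*), 0.11 (*blmp-1*), 0.02 (*elt-3*) and 0.01 (*nhr-23*). *nhr-23* and *myrf-1* were higher in the mutant in the pair at 25 h, by 0.50 and 0.64, and close to equal in the other 3.

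Of 19 genes for microRNA biogenesis, Argonaute proteins and turnover 1 was higher (5.26%, against 3.6% of all genes), the DEAD-box helicase gene *cgh-1* (log2 difference 0.28, SE 0.05, edgeR adjusted p = 0.00798). *gld-1*, a germline translational repressor, had the same difference. Both lost the call without the pair at 26, 27 or 28 h (adjusted p of at most 0.0649). None of 47 sperm genes, 39 DNA replication and cell cycle genes, 32 vulva genes and 15 guidance genes of the Slit-Robo and netrin pathways was called at 0.01. Over all genes tested 6.98% were called. *vit-1*, a yolk protein gene, rose through the window in both genotypes, from 5.17 to 115 CPM in wild type and from 4.16 to 54.2 CPM in the mutant, and was lower in the mutant (log2 difference -1.0, adjusted p = 0.000695), a call that was lost without the pair at 26, 27 or 28 h (adjusted p of at most 0.0146).

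Whether the difference grew or shrank within the window was asked with a linear term across the 4 pairs. It changed at an adjusted p under 0.01 for 78 genes (0.619%), rising in 69 (0.548%) and falling in 9 (0.0714%), with 2 degrees of freedom left for the scatter. limma called none at that threshold, with 1150 genes at an unadjusted p under 0.05. Cuticle genes made up many of the rises, with 18 of the 91 numbered *col* genes and 9 of 58 *abu* and *pqn* genes of the pharyngeal cuticle. The difference of *grd-6*, a hedgehog-related gene, went from -0.63 to 0.25, 0.95 and 1.41 on the log2 scale (0.73 per h, SE 0.06, edgeR adjusted p = 0.000522). *grd-6* itself fell from 527 to 9.89 CPM in wild type and from 339 to 26.7 CPM in the mutant. *col-14* rose by 0.56 per h and *dpy-4* by 0.47 per h. In the opposite direction the difference of *fat-7*, a stearoyl-CoA desaturase gene, went from 0.69 to 0.31, -0.47 and -1.17 (-0.64 per h), and F10D2.10, its neighbour on chromosome V, had nearly the same values.

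Whether the late difference was unlike the early one was asked against the first 4 pairs (wild-type 18 to 21 h), in 1 fit over 22 libraries. In that fit 893 of 12094 genes were called in the last 4 pairs (7.38%), 696 in the first 4 (5.75%) and 175 in the middle 3 (1.45%). No gene differed between the late and the early pairs at an adjusted p under 0.01 in edgeR, with 679 genes (5.61%) at an unadjusted p under 0.05, and none did in limma (657 at an unadjusted p under 0.05). Against all 7 earlier pairs there was likewise none, with 691 genes (5.71%) at an unadjusted p under 0.05. The lowest edgeR adjusted p of that comparison was 0.0913.

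At an adjusted p under 0.05 the late and early differences were unlike for 4 genes (0.0331%), and for none without the pair at 26, 27 or 28 h, where the lowest edgeR adjusted p was 0.116, 0.137 and 0.0549. *asp-14*, an aspartyl protease gene, was lower late (log2 difference -0.48) but higher early (0.42), with a difference of -0.90 (SE 0.11, edgeR adjusted p = 0.0185). *dod-24* went likewise from 0.22 early to -0.48 late (adjusted p = 0.0416), and *ugt-62* from 0.48 to -0.41 (adjusted p = 0.0349). *clec-71* was higher in both, by 1.05 early and by 2.46 late (adjusted p = 0.0355). *ins-13* and *acdh-2* differed by -0.21 and -0.23 early and by -1.73 and -1.71 late, which missed that threshold (adjusted p = 0.0797 and 0.0963). In the middle pairs *ins-13* stood at 10.5, 5.78 and 3.85 CPM in wild type and at 3.80, 1.61 and 2.37 CPM in the mutant.

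Of the 879 genes called late, 422 were also called in the first 4 pairs in the same direction, which is 48% of the late calls and 60.6% of the 696 early calls. Of 870 late calls that could be fitted in the early pairs, 14 had the opposite sign there and 1 was called in the opposite direction. The late and early pairs are different libraries of the same cultures.

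**Figure D5:**
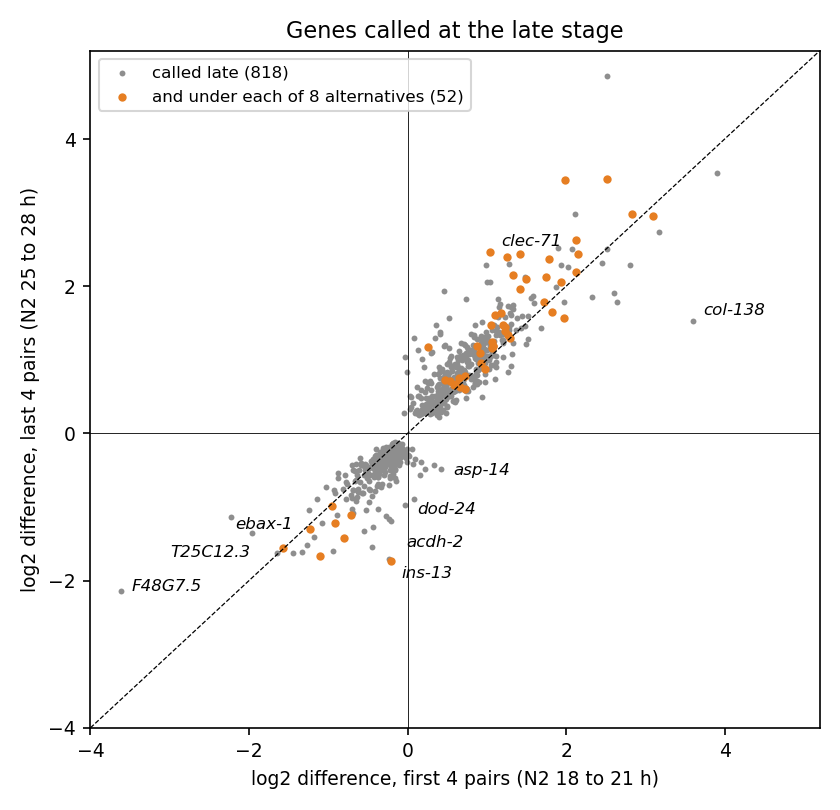
Log2 difference between *ebax-1(tm2321)* and N2 in the last 4 pairs (vertical axis) against the first 4 pairs (horizontal axis), both from the fit over 22 libraries, for the 870 genes called late that were fitted in both windows. Orange points are the 52 genes that were called under each of the 8 alternatives, and the dashed line marks equal differences. Most genes lie near the line, *ins-13* and *acdh-2* lie below it near an early difference of 0, and *asp-14* and *dod-24* are among 14 genes of opposite sign.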

How the data were processed

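Whole-larva poly(A) RNA had been sequenced with a stranded kit. Per the paper's methods, the authors aligned reads to the ce10 genome with HISAT2 through QuasR and counted them, with strand, over WS220 exons. How reads that fit several places were handled is not given in the sources used here. The deposited count table holds whole-number counts of 20392 genes, and the authors' log2 values, scaled to the mean library total with a pseudocount of 8, differed from recomputed ones by at most 0.0005.

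Genes were tested in R 4.3.3 with edgeR 4.0.16 (TMM scaling, filterByExpr, quasi-likelihood test, pair as block, 3 residual degrees of freedom, Benjamini-Hochberg adjustment at 0.01). limma 3.58.1, DESeq2 1.42.0, other scalings, filters, shifts and samples, a fit without the block, and each pair left out in turn were alternatives. The pairing came from the matched hours, and same-pair correlations of deviations were 0.88, 0.50, 0.53 and 0.87. The scripts were tested on simulated data. Coordinates and overlaps are from WBcel235, not the ce10 build of the counts. CPM values use TMM-scaled totals, and ratios in single pairs had 0.25 CPM added.

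Named genes were *ebax-1*, the 10 largest increases and decreases with the same direction in 4 of 4 pairs and a mean of at least 2 CPM in the higher genotype, the 5 largest changes in CPM each way, up to 4 called genes per list, the leading genes of the other tests, and all ligase, heterochronic and oscillator genes. The members and gene lists were chosen with earlier results of these data known. The counting interval of *clec-61* covers counting error only.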

Additional observations from a re-analysis of the deposited data

Results flagged for a closer look

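The log2 ratios of the 4 pairs were searched, gene by gene, for a single pair far from the other 3 by Dixon's test. The total counts of the 4 libraries of each genotype were searched likewise. Of 139 sets of 4 values 9 held such a value, all of them ratios of genes, and chance gives about 1 in 20. For *col-138* the pair at wild-type 27 h had a log2 ratio of 0.64, against 1.62 to 1.75 in the others. For *cul-2* the pair at wild-type 26 h had a log2 ratio of 0.040, against 0.14 to 0.15 in the others. For *ges-1* the pair at wild-type 26 h had a log2 ratio of 0.98, against 0.41 to 0.48 in the others. For *mab-10* the pair at wild-type 25 h had a log2 ratio of 0.52, against -0.09 to 0.01 in the others. For *myrf-1* the pair at wild-type 25 h had a log2 ratio of 0.64, against 0.03 to 0.10 in the others. For *nhr-23* the pair at wild-type 25 h had a log2 ratio of 0.50, against -0.12 to -0.06 in the others. For *nlp-33* the pair at wild-type 28 h had a log2 ratio of 0.91, against 0.66 to 0.70 in the others. For *pud-2.2* (WBGene00017490) the pair at wild-type 25 h had a log2 ratio of 4.85, against 1.58 to 1.99 in the others. For *vit-1* the pair at wild-type 25 h had a log2 ratio of -0.30, against -1.08 to -1.01 in the others. The pair at 25 h was the one that stood apart for 5 of the 9 genes. The cause was not tested.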

How the results depend on the processing

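The 879 calls (453 higher and 426 lower) became 770 with scaling to total counts (548 higher and 222 lower), 650 in DESeq2 (421 and 229), 97 in limma (85 and 12), 1339 without a low-count filter (696 and 643), 2091 at an adjusted p under 0.05 (1038 and 1053) and 558 among genes not rhythmic in wild type (214 and 344). Without the replicate block, that is with the paired libraries taken as unpaired, 26 genes were called (16 and 10), and 2131 had an unadjusted p under 0.05. With 1 pair left out, 119 to 1715 genes were called, 83 to 809 higher and 36 to 906 lower. At a shift of 2 h 18 genes were called (15 and 3), at 0 h 3 genes (0 and 3, with 3760 at an unadjusted p under 0.05), and at 4 h edgeR called 0 genes, with 2946 at an unadjusted p under 0.05. The 4 genes unlike between late and early at an adjusted p under 0.05 were 0 at 0.01. The change across the pairs was called in 181 genes at 0.05, and limma called 0 (1150 at an unadjusted p under 0.05). *ebax-1* lost its call in limma (-1.30), without the block (-1.46) and at shifts of 4 h (-1.08) and 0 h (-1.95).

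Of 101 named genes called, all kept direction and call with RLE scaling, without a filter, with a mean of at least 1 CPM and without the pair at 25 h, while 96 did with total counts, 90 in DESeq2, 29 in limma, 9 without the block, and 42, 48 and 70 without the pairs at 26, 27 and 28 h. None of them changed sign at the 3 h shift. Sign changes at other shifts, and of genes that were not called, were as follows, and the cause was not tested. At a shift of 0 h the log2 difference turned to -0.025 (*cul-2*), 1.48 (F48G7.5), 0.99 (*ins-13*), 0.93 (*acdh-2*), 0.23 (*amt-1*), 0.98 (C09B8.4), -0.81 (*dpy-13*), -0.22 (*col-17*), 0.052 (*ahcy-1*), 0.039 (*asp-1*), 0.075 (*dod-17*), -0.72 (*cpz-1*), 0.65 (*ifb-2*), 0.17 (*hsp-6*), 0.033 (*hsp-60*), -2.05 (*sqt-1*), -2.21 (*rol-8*), -2.27 (*sqt-3*), -2.92 (*lon-3*), -0.91 (*dpy-4*), -6.10 (*col-138*), 0.50 (*col-118*), -2.53 (*mlt-9*), -2.95 (*qua-1*), -1.37 (*mlt-8*), -3.30 (*wrt-4*), -2.67 (*wrt-1*), 1.57 (*ptr-13*), 0.36 (*ugt-62*), -0.78 (*col-14*), -0.14 (*cand-1*), -0.10 (*rfl-1*), -2.03 (*lin-42*), 2.0 (*lin-46*), 0.11 (*lin-66*), -0.89 (*mab-10*), -0.41 (*lin-29*), 0.61 (*lin-14*), -0.57 (*bed-3*), -1.55 (*grh-1*), 1.24 (*nhr-85*), -0.31 (*blmp-1*), -0.14 (*nhr-23*), -0.38 (*cgh-1*), -0.49 (*gld-1*). With total-count scaling the log2 difference turned to 0.046 (*rbx-1*), 0.045 (*lin-14*). In limma the log2 difference turned to 0.045 (*rbx-1*), 0.050 (*lin-14*). In the fit of 3 windows over 22 libraries the log2 difference turned to 9.26e-06 (*rbx-1*), 0.00039 (*lin-14*). In the spline over 22 libraries the log2 difference turned to 0.012 (*rbx-1*). At a shift of 4 h the log2 difference turned to 0.024 (*rbx-1*), -0.29 (*dpy-13*), -0.32 (*col-17*), 0.21 (*vit-1*), -0.056 (*sqt-3*), -0.39 (*dpy-4*), -0.0029 (*mlt-9*), -0.068 (*qua-1*), -0.15 (*mlt-8*), -0.22 (*wrt-4*), -0.65 (*grd-6*), -0.63 (*col-14*), 0.013 (*fat-7*), -0.027 (*ned-8*), 0.016 (*dre-1*), -0.087 (*puf-9*), 0.041 (*mab-3*), 0.0031 (*lin-28*), -0.014 (*lin-41*), -0.39 (*kin-20*), -0.28 (*bed-3*), -0.17 (*nhr-25*). At a shift of 2 h the log2 difference turned to -0.70 (*col-138*), 0.21 (*col-118*), -0.017 (*mlt-9*), -0.32 (*qua-1*), -0.49 (*lin-42*), 0.48 (*lin-46*), -0.71 (*mab-10*), -0.25 (*lin-29*), 0.19 (*lin-14*), -0.26 (*grh-1*), -0.17 (*myrf-1*), 0.21 (*nhr-85*), -0.12 (*blmp-1*), -0.094 (*elt-3*), -0.43 (*nhr-23*). Without the replicate block the log2 difference turned to -0.20 (*grd-6*), -0.061 (*kin-20*), -0.048 (*nhr-23*). With 1 pair left out it ranged across 0, from -0.039 to 0.0025 (*rbx-1*), from -0.53 to 0.18 (*fat-7*), from -0.58 to 0.10 (F10D2.10), from -0.0036 to 0.098 (*ned-8*), from -0.048 to 0.094 (*rfl-1*), from -0.0073 to 0.086 (*lin-41*), from -0.052 to 0.10 (*mab-10*), from -0.068 to 0.15 (*kin-20*), from -0.075 to 0.047 (*lin-29*), from -0.078 to 0.031 (*lin-14*), from -0.0013 to 0.15 (*blmp-1*), from -0.065 to 0.10 (*elt-3*), from -0.12 to 0.068 (*nhr-23*). The analyses of microRNA seed matches and of promoter motifs were not run. With 3 residual degrees of freedom and 1 library per genotype and hour, genes below about 1 CPM rest on few reads.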

Other observations

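Some gene families were counted after their values had been seen, and so are descriptions only. Of 12 protein-coding genes of the mitochondrial genome 7 were lower and none was higher, and 11 were lower in 4 of 4 pairs, with a median log2 difference of -0.31 (-0.26 with total-count scaling). Over all genes 3.38% were lower and 17.5% were lower in 4 of 4 pairs. The 7 calls became 10, 3, 1 and 1 without the pair at 25, 26, 27 or 28 h, and 0 in limma. Their summed level was 16393 to 19199 CPM in wild type and 13508 to 15570 CPM in the mutant, and the median was 0.04 in the first 4 pairs and 0.11 in the middle 3. Of 20 subunit genes of the vacuolar proton pump 6 were lower and 17 were lower in 4 of 4 pairs (median -0.17), and of 6 genes for gut intermediate filaments 4 were lower (median -0.47). These counts were 15 and 4 without the pair at 25 h, 0 and 0 without that at 26 or 27 h, 0 and 1 without that at 28 h, and 0 and 0 in limma.

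All 6 *pud* genes, which lie between 2322038 and 2330930 on chromosome V in WBcel235, were higher, with a summed level of 5.09 to 18.6 CPM in wild type and 56.1 to 120 CPM in the mutant (3.6% of all genes were higher). The 6 calls became 6, 0, 0 and 2 without the pair at 25, 26, 27 or 28 h, and 2 in limma. Of 5 lysosomal lipase genes tested 3 were higher, as they were without the pair at 26, 27 or 28 h and in limma, and 4 without that at 25 h.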
